A study of Mus musculus with 7 samples.

Results

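The 10 genes studied here belong to the adipogenic lineage of bone marrow, and were measured in sorted skeletal cells of mice on a low fat or a high fat diet. They were chosen by name: the transcription factor genes Pparg, Cebpa, Cebpb and Cebpd, the zinc finger genes Zfp423 and Zfp467, the lipid handling genes Lpl and Fabp4, and Agt and Adipoq, the genes of angiotensinogen and adiponectin. All 10 of 10 were found by Ensembl identifier among the 42687 genes of the count table, and all 10 had enough counts to be tested. Digested femurs of C57BL/6 mice were the source, and flow cytometry kept cells positive for CD24 and CD29. The labels call them skeletal stem cells of bone. The mice were 3 months old when feeding began and ate food with 10% fat (LFD, 4 libraries, numbered 1 to 4) or 60% fat (HFD, 3 libraries, numbered 2 to 4) over 4 weeks. No genetic change is named in either group, and the labels do not say how many animals made up a library.

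Total counts per library ranged from 17391613 to 24681838. Each LFD library had 257 to 526 counts of Xist and 1 to 5 counts over 4 Y-linked genes, and each HFD library had 0 and 2494 to 3405, so diet and the sex of the animals cannot be told apart in any comparison below. The labelled cell type held cartilage, bone and blood transcripts. Markers of chondrocytes such as Col2a1 made up 2.32% to 6.85% of a library, osteoblast markers such as Col1a1 1.38% to 4.11%, and erythroid markers such as Hbb-bs 2.59% to 14.2%. Neutrophil markers made up 0.106% to 0.559% in LFD and 1.06% to 1.69% in HFD. Because whole sorted populations were sequenced, more cells of a type and more RNA per cell cannot be told apart.

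Fat cells of the marrow arise from stromal cells that surround its blood vessels. In cell culture, C/EBP-beta and C/EBP-delta act early in fat cell formation and induce PPAR-gamma and C/EBP-alpha, which then maintain each other and switch on the genes of the fat cell. In mouse marrow, adiponectin and angiotensinogen transcripts also mark stromal cells of this lineage that carry no large lipid droplet and that overlap with the reticular cells defined by the leptin receptor and Cxcl12.

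Agt, Lpl, Adipoq and Cebpb were higher in every HFD library than in every LFD library, and Fabp4 was lower in every HFD library. Mean levels in HFD were 3.09 times those in LFD for Agt, 2.33 times for Lpl, 3.71 times for Adipoq and 1.95 times for Cebpb. The remaining 5 genes, Cebpd, Cebpa, Pparg, Zfp423 and Zfp467, had overlapping groups. The diets thus did not overlap for 5 of the 10 genes, against 11.9% of the 14304 genes tested in either direction, and for 4 of 10 in the direction of HFD, against 8.4%. The 10 genes were chosen with earlier results of these data known. Comparisons of them with all genes tested are therefore descriptive and test no enrichment. With edgeR's quasi-likelihood test, none of the 10 passed an adjusted p of 0.05, a threshold passed by 0.035% of genes tested, and 3 of 10 had an unadjusted p under 0.05 with higher values in HFD (5.18% of genes tested). None of the 10 had an unadjusted p under 0.05 with lower values in HFD (2.35% of genes tested, and 7.53% in either direction). A p above the threshold does not show that the diets were alike. DESeq2 called 2 of the 10, Agt and Lpl (2.25% of genes tested), and limma-voom with sample quality weights called 1, Agt (0.196%). The median log2 fold change of the 10 was 0.54, with 8 higher and 2 lower in HFD, and 0.02 over all genes tested, of which 51.5% were higher. All values below are CPM, counts per 1000000 of the TMM-scaled library total, and fold changes are HFD against LFD.

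**Figure D1:**
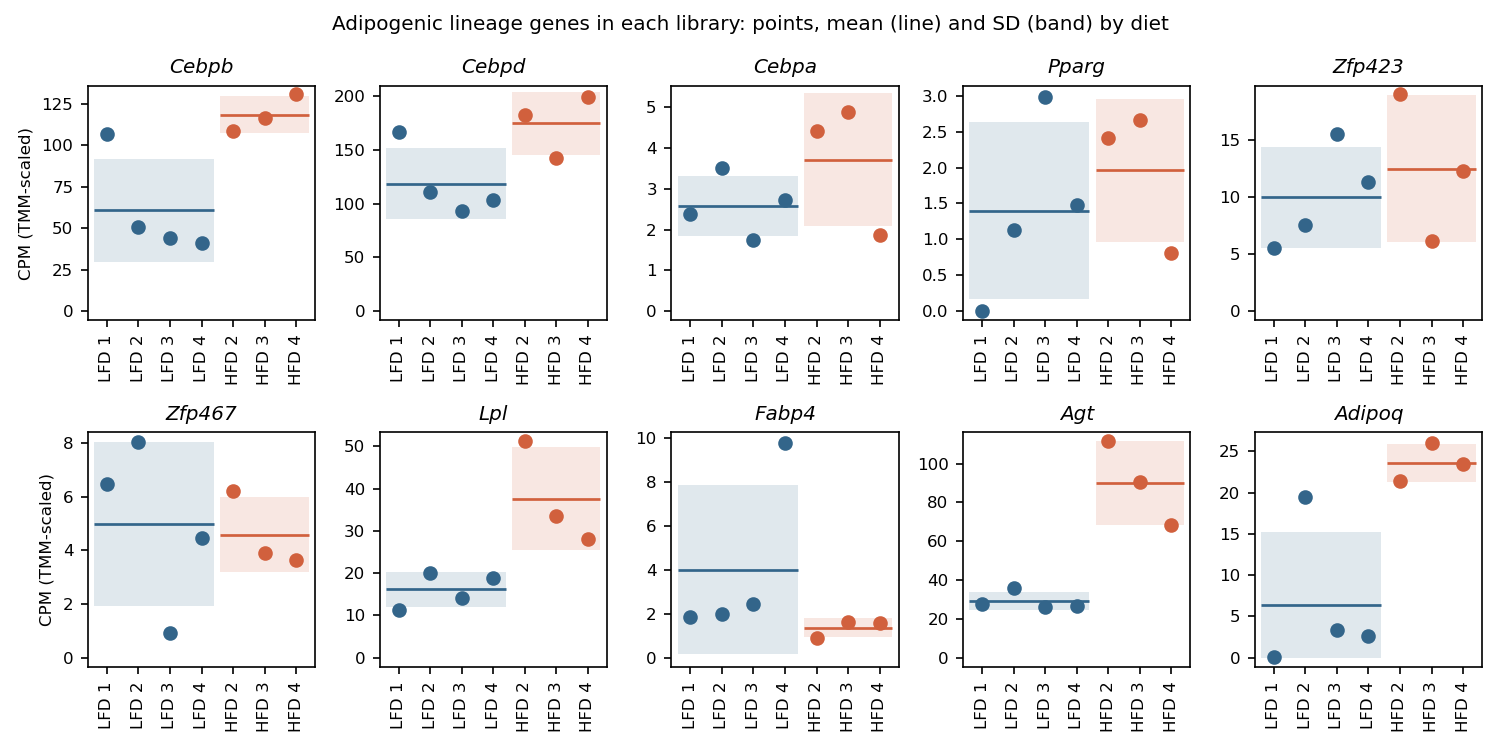
Level of each gene in CPM in the 4 LFD libraries (blue) and the 3 HFD libraries (orange), with the mean as a line and the SD as a band. Agt, Lpl, Adipoq and Cebpb lie higher in all 3 HFD libraries, LFD 2 comes close for Adipoq (19.5 against 21.4 CPM) and LFD 1 for Cebpb (106.6 against 108.2 CPM).

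**Figure D2:**
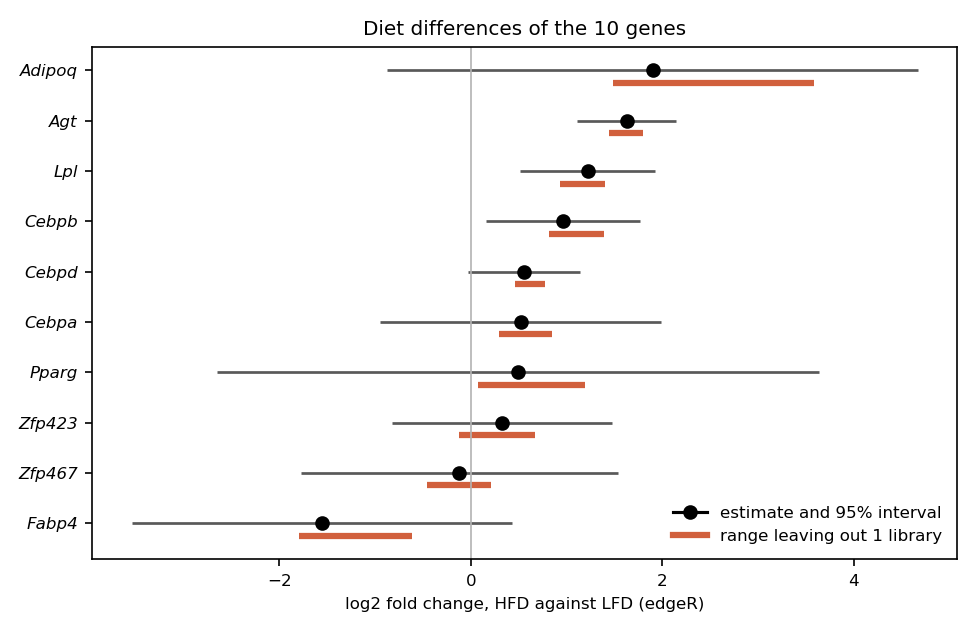
Log2 fold change, HFD against LFD, of each gene from edgeR (black point) with its 95% interval (grey line), and the range of estimates when 1 library at a time was left out (orange bar). The intervals of Agt (1.11 to 2.15), Lpl (0.52 to 1.93) and Cebpb (0.16 to 1.77) lie above 0, before adjustment for the number of genes tested.

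Agt encodes angiotensinogen, the precursor of the angiotensin peptides, and is made by liver and by fat and stromal cells. The gene (ENSMUSG00000031980) lies on chromosome 8, 124556534 to 124569706, minus strand, in the mm10 build. It measured 27.5, 36.0, 26.3 and 26.8 CPM in LFD 1 to 4 and 111.6, 90.3 and 68.4 in HFD 2 to 4. The LFD libraries lay close together, and the lowest HFD library was well above the highest of them. The log2 fold change was 1.63 ± 0.23 (SE, n = 4 and 3), with an adjusted p = 0.1099 in edgeR, 1.32e-06 in DESeq2 and 0.0273 in limma-voom. Leaving out 1 library at a time kept the edgeR estimate between 1.44 and 1.80 with adjusted p from 0.133 to 0.673, and over all alternatives the adjusted p of Agt ran from 1.32e-06 to 0.776.

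Adipoq encodes adiponectin, a hormone of fat cells (ENSMUSG00000022878, chromosome 16, 23146536 to 23158028, plus strand). It had 1, 311, 53 and 53 counts in LFD 1 to 4 and 611, 538 and 491 in HFD 2 to 4. On the CPM scale these were 0.0390, 19.5, 3.30 and 2.62 in LFD and 21.4, 26.0 and 23.5 in HFD. The HFD libraries lay close together (SD 2.31 CPM, n = 3), whereas the LFD libraries spread from almost no transcript in LFD 1 to nearly the HFD level in LFD 2 (SD 8.86 CPM, n = 4). The log2 fold change of 1.90 ± 1.20 (SE) had a 95% interval from -0.87 to 4.67 and an adjusted p = 0.707 in edgeR. It rested on LFD 2 in size, being 3.58 without that library, where the adjusted p was 0.530 (0.141 to 0.9999 over all alternatives).

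The 250 bases before the transcription start are shown for Agt and Adipoq, whose levels were higher in all HFD libraries. Lpl, Cebpd and Fabp4 had no entry in the table. Sequences are from RefSeq, build GRCm38.p6, written 5′ to 3′ on the gene's strand, and 7 of the 10 genes had an entry with 10 start sites in all. A set of 3 motifs was searched on both strands: the C/EBP site TTGCNNAA, TATAAA and CCAAT. Capitals mark matches, no matches overlapped each other, and a match describes letters, not binding.
Agt, chr8:124569707-124569956, minus strand: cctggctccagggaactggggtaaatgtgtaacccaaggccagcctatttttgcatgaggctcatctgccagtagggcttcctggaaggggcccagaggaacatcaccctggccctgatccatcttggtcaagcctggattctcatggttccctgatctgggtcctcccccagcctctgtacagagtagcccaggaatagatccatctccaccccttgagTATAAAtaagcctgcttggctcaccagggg
Adipoq, chr16:23146286-23146535, plus strand: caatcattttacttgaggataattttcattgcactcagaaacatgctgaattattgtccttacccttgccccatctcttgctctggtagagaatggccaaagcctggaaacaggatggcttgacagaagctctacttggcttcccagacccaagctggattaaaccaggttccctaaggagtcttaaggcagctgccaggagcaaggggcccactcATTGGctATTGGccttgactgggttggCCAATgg
The Agt window held TATAAA from 30 to 25 bases before the start, and 12.4% of the 32851 windows in the table held that motif somewhere. The Adipoq window held 3 CCAAT matches within 34 bases of the start, and at least 1 was found in 33.8% of windows. Neither window held TTGCNNAA, which 9.56% of windows did.

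Markers of marrow reticular stroma were higher in the same libraries as Agt and Adipoq. The 14 markers, all detected, summed to 0.0704% to 0.105% of counts in LFD and 0.243% to 0.468% in HFD. Vcam1, whose groups overlapped, gave the most counts of the list in each LFD library, and Cxcl12 in each HFD library. The summed shares of the diets thus rest mostly on different genes. Of the 14, 13 had higher fitted values in HFD (51.5% of genes tested). DESeq2 called 7 of them higher (1.77% of the genes it tested), and edgeR none (0.035% in either direction). Lepr, the leptin receptor gene, measured 88.3, 93.7, 51.0 and 78.2 CPM in LFD and 269.7, 251.4 and 160.8 in HFD. Cxcl12, the chemokine gene of these cells, measured 8.51, 206.9, 39.8 and 133.5 CPM in LFD and 1986, 1564 and 1118 in HFD. LFD 1 had the lowest values of both Cxcl12 and Adipoq, and LFD 2 the highest among LFD libraries. The other markers of the list did not share this order. Within LFD, Lepr, Esm1, Vcam1 and Chrdl1 were highest in LFD 2. Pdgfrb, Foxc1, Gas6 and Ebf3 were highest in LFD 1, and Hp, Kitl, Il7, Grem1 and Csf1 in LFD 4. The summed share was 0.0966% in LFD 1 and lowest in LFD 3. Within HFD, Adipoq was lowest in HFD 2 (21.4 CPM), where the summed share was highest (0.468%). Agt per unit of Lepr, a ratio chosen after the values were seen, was 0.389 ± 0.0902 (SD, n = 4) in LFD and 0.399 ± 0.0352 (SD, n = 3) in HFD, and the groups overlapped. Lepr was 1 of the 2 genes with profiles most similar to Agt, so that overlap is largely built into the choice of Lepr. Adipoq per unit of Lepr ranged from 0.000442 to 0.208 in LFD and from 0.0792 to 0.146 in HFD, also overlapping. Cebpb per unit of Lepr overlapped as well, with 0.523 to 1.21 in LFD and 0.401 to 0.811 in HFD. Mean Lepr in HFD was itself 2.92 times that in LFD, so overlap of such ratios does not place a gene in stromal cells. The part of stromal cell number in the diet difference was not tested.

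**Figure D3:**
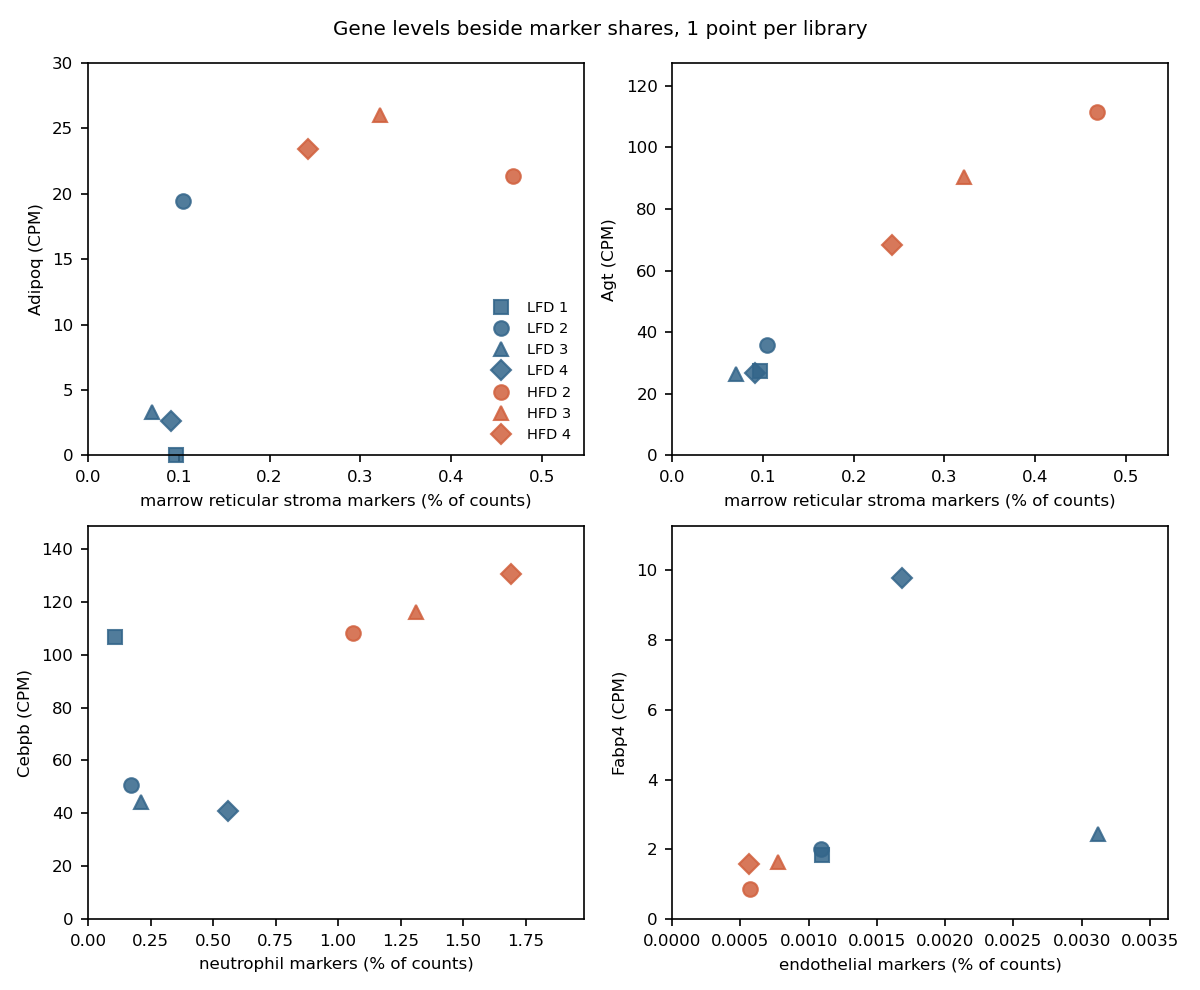
Level of Adipoq, Agt, Cebpb and Fabp4 in CPM against the summed share of counts of a marker list in percent, with 1 point per library (LFD blue, HFD orange, shape by library number). Agt is highest where reticular stroma markers reach 0.468% of counts (HFD 2), and the 3 HFD libraries have both more Cebpb and a larger neutrophil marker share (1.06% to 1.69%) than the LFD libraries.

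Markers of the mature fat cell were at or near 0. Of 7 such genes, 5 (Cidec, Lep, Retn, Cfd and Adrb3) had 0 counts in all 7 libraries, where 3 counts would be worth 0.105 to 0.188 CPM. Plin1, which coats lipid droplets, had counts in HFD 4 alone (0.334 CPM). Aqp7, a glycerol channel, reached 3.16 CPM in LFD 4 and at most 0.245 CPM in HFD. The summed share of the list was at most 0.000313% of a library.

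Lpl encodes lipoprotein lipase, which frees fatty acids from circulating triglyceride (ENSMUSG00000015568, chromosome 8, 68880491 to 68907448, plus strand). It measured 11.4, 20.1, 14.2 and 18.9 CPM in LFD 1 to 4 and 51.3, 33.5 and 28.0 in HFD 2 to 4. All HFD libraries exceeded all LFD libraries, and HFD 2, with the highest stromal marker share, was the highest. The log2 fold change was 1.22 ± 0.31 (SE), with an adjusted p = 0.309 in edgeR, 0.0321 in DESeq2 and 0.126 in limma-voom, and values up to 0.9997 with the erythroid share as a covariate. Lpl per unit of Lepr, also chosen after the values were seen, was 0.216 ± 0.0637 (SD, n = 4) in LFD and 0.166 ± 0.0293 (SD, n = 3) in HFD, with overlapping groups. Macrophages also express Lpl. Markers of monocytes and macrophages, taken as 1 list, summed to 0.00204% to 0.0104% of counts in LFD and 0.0168% to 0.0207% in HFD. Of its 10 markers 5 had groups that did not overlap, all higher in HFD (8.4% of genes tested). Csf1r measured 0.00 to 6.87 CPM in LFD and 12.6 to 30.6 in HFD. Adgre1 (0.00 to 7.71 and 2.66 to 6.09 CPM) and Mrc1 (0.00 to 10.8 and 0.00 to 2.59 CPM) had overlapping groups. The part of these cells in the level of Lpl was not tested.

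Fabp4 encodes a fatty acid carrier of fat cells, and capillary endothelium and macrophages also make it (ENSMUSG00000062515, chromosome 3, 10204088 to 10208576, minus strand). It measured 1.83, 2.005, 2.43 and 9.79 CPM in LFD and 0.874, 1.64 and 1.58 in HFD. LFD 4 stood far above the others, and the next step, from 1.83 in LFD 1 to 1.64 in HFD 3, was small. The log2 fold change of -1.55 ± 0.86 (SE, adjusted p = 0.693 in edgeR) became -0.62 without LFD 4. Endothelial markers summed to 0.00109% to 0.00312% of counts in LFD and 0.000563% to 0.000776% in HFD. The summed share was highest in LFD 3 (0.00312%) and lower in LFD 4 (0.00169%), where Fabp4 was highest. Of the 9 markers, Pecam1 (5.98 CPM), Cdh5 (4.10), Cldn5 (2.72), Emcn and Flt1 were highest in LFD 4. Tek (15.6 CPM, and 1.48 in LFD 4), Kdr (9.59, and 0.00) and Esam (9.28 CPM, and 0.890) were highest in LFD 3, and Egfl7 in LFD 2. The part of endothelial cells in the level of Fabp4 was not tested.

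Cebpb encodes C/EBP-beta, an early factor of fat cell formation that also acts in myeloid cells and in acute responses (ENSMUSG00000056501, chromosome 2, 167688915 to 167690418, plus strand). It measured 106.6, 50.7, 44.2 and 40.9 CPM in LFD and 108.2, 116.2 and 130.5 in HFD. LFD 1 was almost at the HFD level, and the other LFD libraries lay at less than 51 CPM. The log2 fold change was 0.96 ± 0.35 (SE, adjusted p = 0.575 in edgeR) and 1.39 without LFD 1 (adjusted p = 0.143, and 0.0694 to 0.9999 over all alternatives). Neutrophil markers had higher fitted values in HFD for 11 of 11 genes (51.5% of all genes tested), and 9 had groups that did not overlap (8.4% of genes tested). S100a8 measured 191.9 to 1119 CPM in LFD and 1948 to 3704 in HFD. The groups overlapped for Mpo (0.0627 to 182.9 and 72.4 to 171.4 CPM) and Elane (0.125 to 137.9 and 66.8 to 162.2 CPM). The summed share of these markers was 0.106%, 0.171%, 0.211% and 0.559% in LFD 1 to 4 and 1.06%, 1.31% and 1.69% in HFD 2 to 4. Within LFD this order was the reverse of that of Cebpb, and LFD 1 had the highest Cebpb with the smallest share. The part of neutrophils in the level of Cebpb was not tested. Tmem189 overlaps Cebpb on the opposite strand with shared exonic sequence, and since the strand setting is not given in the sources used here, reads of the pair may have been mixed or dropped. Tmem189 itself measured 29.5 to 45.9 CPM in all libraries.

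Cebpd encodes C/EBP-delta, the other early factor (ENSMUSG00000071637, chromosome 16, 15887286 to 15891031, plus strand). It measured 166.6, 111.2, 93.4 and 103.1 CPM in LFD and 182.3, 142.4 and 198.8 in HFD. LFD 1 was again the highest LFD library and exceeded HFD 3, so the groups overlapped. The log2 fold change was 0.56 ± 0.25 (SE), with a 95% interval from -0.02 to 1.14 and an adjusted p = 0.681 in edgeR. Spidr overlaps Cebpd on the opposite strand, with 8.29 to 33.1 CPM.

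Cebpa and Pparg, which maintain the fat cell state, were low in every library. Cebpa (ENSMUSG00000034957, chromosome 7, 35119293 to 35121928, plus strand) measured 2.38, 3.51, 1.74 and 2.72 CPM in LFD and 4.41, 4.88 and 1.86 in HFD. HFD 2 and HFD 3 exceeded all LFD libraries, and HFD 4 lay within the LFD range. Its log2 fold change was 0.52, with a 95% interval from -0.95 to 1.99. Pparg (ENSMUSG00000000440, chromosome 6, 115360951 to 115490399, plus strand) had 0, 18, 48 and 30 counts in LFD and 69, 55 and 17 in HFD, which is 0.00 to 2.99 CPM and 0.812 to 2.66 CPM. The groups overlapped widely, and the interval of its log2 fold change, -2.65 to 3.63, held large changes in either direction. A single antisense transcript overlaps each of these genes, and neither reached 1 CPM.

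Pparg has 3 start sites in the RefSeq table, and counts per gene do not tell their transcripts apart. The window before the third start is printed because it alone of the Pparg windows held the C/EBP site, the motif bound by the factors above.
Pparg start 3, chr6:115421816-115422065, plus strand: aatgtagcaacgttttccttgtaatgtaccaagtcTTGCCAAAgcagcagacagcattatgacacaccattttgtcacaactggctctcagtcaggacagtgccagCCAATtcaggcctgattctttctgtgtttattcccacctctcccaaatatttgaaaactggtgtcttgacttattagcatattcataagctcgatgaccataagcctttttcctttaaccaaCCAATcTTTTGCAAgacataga
Capitals mark TTGCNNAA (reverse complement TTNNGCAA) at 215 to 208 and at 16 to 9 bases before the start, and CCAAT at 144 to 140 and at 22 to 18. Among the 10 windows of these genes, the first Zfp423 start also held a TTGCNNAA match, at 131 to 124 bases before the start.

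Zfp423 encodes a zinc finger protein that commits precursors to the fat lineage and raises their response to BMP signals (ENSMUSG00000045333, chromosome 8, 87661810 to 87959595, minus strand). It measured 5.50, 7.58, 15.5 and 11.3 CPM in LFD and 19.1, 6.13 and 12.3 in HFD. Each diet held low and high libraries, and the log2 fold change was 0.33 (95% interval -0.83 to 1.48). Zfp467 encodes a zinc finger protein that favours fat over bone in marrow stromal cells (ENSMUSG00000068551, chromosome 6, 48427697 to 48445825, minus strand). It measured 6.48, 8.02, 0.934 and 4.45 CPM in LFD and 6.19, 3.91 and 3.63 in HFD. The HFD libraries lay within the LFD range, and the log2 fold change was -0.12 (95% interval -1.77 to 1.53). The sign of the difference was not stable for either gene, since it turned for Zfp423 without HFD 2 (-0.12) and for Zfp467 without LFD 1, LFD 2, HFD 3 or HFD 4, reaching 0.21.

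Divided by exon length, the 10 genes spanned a wide range of levels. Cebpb had the highest mean over the 7 libraries, 56.7 CPM per kb, followed by Cebpd (38.1), Agt (29.2) and Adipoq (9.96). Lpl (2.42), Zfp423 (1.97), Cebpa (1.17), Zfp467 (1.13), Fabp4 (0.641) and Pparg (0.555) were lower, all in CPM per kb. The annotated exons of Fabp4 together cover its whole span of 4489 bases. Its level per kb is too low if most of its transcripts are shorter, so its place in the order is uncertain. Ranges over libraries overlapped for every pair of neighbours in this order. Within libraries, Agt exceeded Adipoq in 7 of 7 and Cebpb exceeded Cebpd in 6 of 7, whereas Cebpa exceeded Zfp467 in 3 of 7. Per length, Cebpb was 25.4 to 122.7 times the level of Cebpa in the same library, and Cebpd 20.6 to 75.1 times. In HFD the means per kb of Agt (47.6) and Cebpd (46.6) were nearly equal, and in LFD Cebpd (31.7) stood above Agt (15.4).

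**Figure D4:**
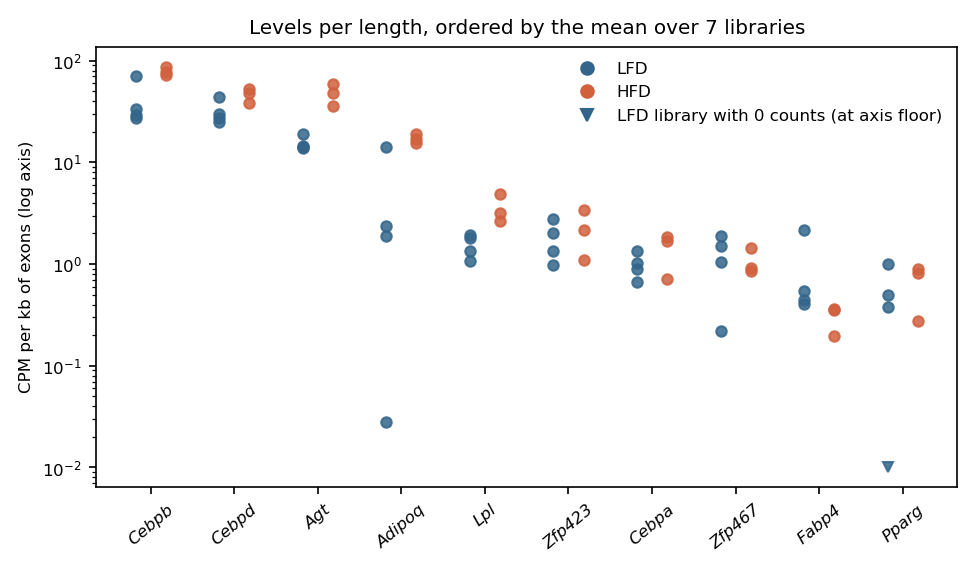
Level of each gene in CPM per kb of exon sequence on a log axis, ordered by the mean over the 7 libraries (LFD blue, HFD orange). The triangle is LFD 1 with 0 counts of Pparg, drawn at the axis floor, and Adipoq in LFD 1 stands at 0.0283 CPM per kb.

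The genes with the most similar profile over the 7 libraries were sought for the 5 genes whose groups did not overlap, among 8991 genes with a mean of at least 8 CPM. Likeness was the root mean square difference of log2(CPM + 1) after centring each gene on its mean. For Agt these were Rdh12 (0.163) and Lepr (0.217), for Lpl Sema4d (0.129) and Cmtm6 (0.179), and for Cebpb Lpgat1 (0.200) and Gsdmd (0.208). The nearest genes of Adipoq were farther away, Ccr1 at 0.580 and H2-Q6 at 0.588, and those of Fabp4 were Ftl1-ps1 (0.317) and Hacl1 (0.382). H2-Q6 and Ftl1-ps1 have near-identical copies elsewhere in the genome, so their counts are uncertain.

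Genes around these 10 were read from lists, none of whose members passed edgeR's adjusted threshold (0.035% of genes tested). Over all genes tested, 51.5% were higher in HFD, and 7.53% had an unadjusted p under 0.05 in edgeR in either direction. Of 17 tested activators of fat cell formation 10 were higher and 7 lower in HFD (median log2 fold change 0.10), with 1 at an unadjusted p under 0.05. Ebf1, a factor of early stromal and fat precursors, measured 10.1 ± 1.94 CPM (SD, n = 4) in LFD and 17.6 ± 4.27 (SD, n = 3) in HFD. Klf5 measured 22.0 ± 2.75 and 15.2 ± 2.18 CPM, the other direction, and Egr2, the list's highest gene per kb, 77.9 ± 37.1 and 143.3 ± 13.0 CPM. Of the 17 tested, the groups did not overlap for these 3 alone, against 11.9% of all genes tested. Ebf1 and Klf5 were named because they had the smallest p of the list.

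Of 13 tested inhibitors of fat cell formation 8 were higher and 5 lower (median 0.19). Again 1 had an unadjusted p under 0.05 in edgeR (7.53% of genes tested). Ccn5, which encodes a secreted protein that binds Zfp423 in precursor cells, measured 35.5 ± 15.2 CPM in LFD and 94.2 ± 4.10 in HFD. It was the member of the list called by DESeq2 (adjusted p = 0.0261, against 0.318 in edgeR and up to 0.9997 over all alternatives). Zfp521, an antagonist of Zfp423, measured 28.9 ± 15.03 and 52.3 ± 2.36 CPM, without overlap of the groups. Klf2 was the highest gene of the list per kb, with 259.7 ± 128.9 and 312.6 ± 22.1 CPM and overlapping groups.

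Of the 3 other C/EBP family genes, Cebpe, a factor of late granulocytes, measured 0.312, 1.94, 1.93 and 5.98 CPM in LFD and 7.45, 7.39 and 17.9 in HFD, with neutrophil markers higher in the same libraries. Ddit3, which encodes the inhibitory partner CHOP, measured 23.7 ± 5.47 CPM in LFD and 27.9 ± 4.72 in HFD. The median log2 fold change of the 3 was 0.24, and the groups of Ddit3 overlapped.

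Of 16 tested genes of lipid storage and the mature fat cell 9 were higher and 7 lower (median 0.13), and 6 had an unadjusted p under 0.05 with higher values in HFD (5.18% of genes tested). Among them Plin5 had counts in HFD alone and entered the test through that group, so its direction was fixed by the filter, while Aqp7, with 64 counts in LFD 4 and 0 in the other LFD libraries, was not tested. Dgat2, an enzyme of the last step of triglyceride synthesis, measured 10.2 ± 2.59 CPM in LFD and 25.7 ± 8.34 in HFD (adjusted p = 0.318 in edgeR, 0.0186 in DESeq2 and up to 0.9997 over all alternatives). Plin5, a lipid droplet protein gene, had 0 counts in all 4 LFD libraries and 0.979, 0.676 and 0.573 CPM in HFD, at least 19.96-fold higher when 3 counts over the LFD group are taken as the floor. Cd36, a fatty acid carrier, was the highest of the list per kb and measured 536.0, 1318, 1495 and 783.3 CPM in LFD and 132.0, 504.5 and 777.5 in HFD. Erythroid markers, with 10.2%, 12.8%, 14.2% and 11.2% of counts in LFD and 2.59%, 7.35% and 10.4% in HFD, gave the same order of libraries within each diet. For Cd36 the log2 fold change was -1.13 ± 0.61 (SE) in edgeR and 0.039 with the erythroid share as a covariate.

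Among 6 tested genes that handle lipoprotein lipase, 4 were higher and 2 lower (median 0.30). An unadjusted p under 0.05 in edgeR was found for 2 (7.53% of genes tested). Sorl1, a sorting receptor that carries the lipase to lysosomes, measured 34.7 ± 5.61 CPM in LFD and 78.9 ± 19.8 in HFD (adjusted p = 0.230 in edgeR, 0.000677 in DESeq2 and up to 0.781 over all alternatives). Angptl4, a secreted inhibitor of the lipase, measured 65.1, 8.08, 23.2 and 16.8 CPM in LFD and 131.3, 108.2 and 83.9 in HFD, with LFD 1 nearest to the HFD libraries. Gpihbp1, which carries the lipase across capillary endothelium, stayed at or under 2.27 CPM.

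Of 8 tested genes of the renin-angiotensin system 4 were higher and 4 lower (median 0.05). An unadjusted p under 0.05 in edgeR was found for 1 (7.53% of genes tested). Ren1, the gene of the enzyme that cuts angiotensinogen, had at most 1.05 CPM and was not tested. Mme, a peptidase that degrades angiotensin peptides, measured 8.53 ± 3.72 CPM in LFD and 26.6 ± 14.0 in HFD. The receptor gene Agtr1a measured 15.9, 44.98, 29.9 and 29.3 CPM in LFD and 3.29, 13.8 and 21.0 in HFD, with overlapping groups, and Ctsd, the highest of the list per kb, 292.6 ± 37.8 and 324.5 ± 20.1 CPM.

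Of 6 adiponectin response genes 1 was higher and 5 lower (median -0.37), with none at an unadjusted p under 0.05 in edgeR and none called by DESeq2. The receptor gene Adipor1 measured 1400, 2632, 3042 and 1767 CPM in LFD and 624.4, 1333 and 1773 in HFD, in the same order of libraries within each diet as the erythroid share. Cdh13, which encodes the adiponectin-binding T-cadherin, measured 201.3, 75.7, 82.1 and 89.9 CPM in LFD and 84.0, 83.1 and 68.1 in HFD. The 3 other tested fatty acid binding protein genes were all lower in HFD by their estimates (median -0.78), again with none at an unadjusted p under 0.05, and were scarce. Fabp5 measured 4.82 ± 1.91 and 2.80 ± 1.67 CPM and Fabp7 1.54 ± 0.644 and 0.638 ± 0.388 CPM.

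**Figure D5:**
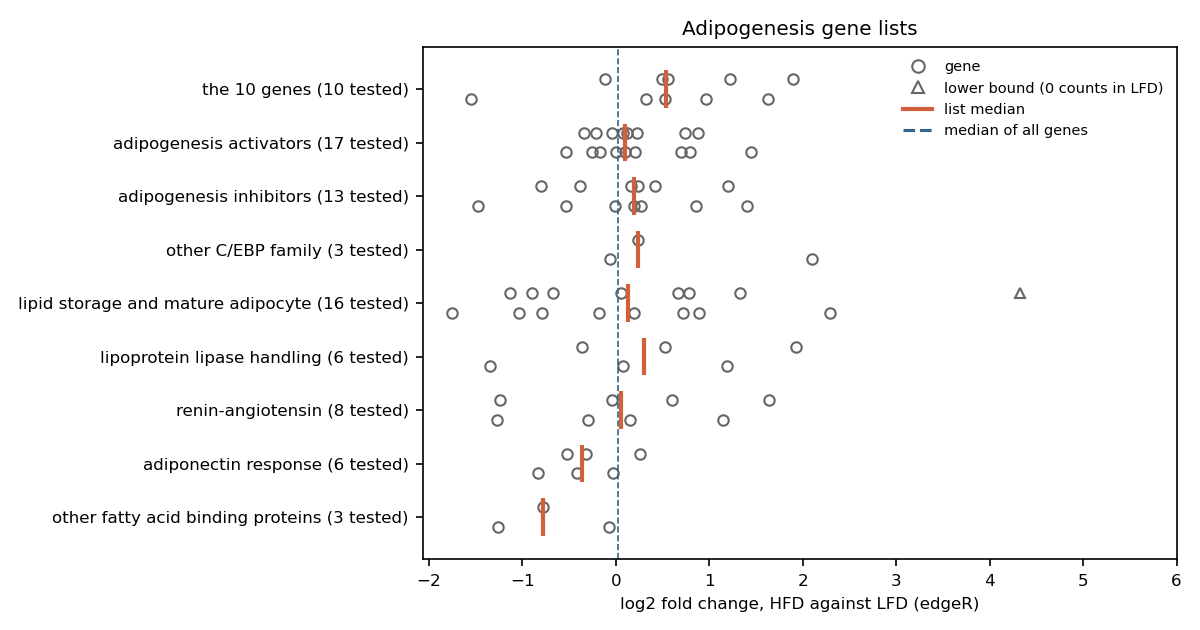
Log2 fold change, HFD against LFD, of each tested gene in the 10-gene set and in the 8 adipogenesis lists, with the list median (orange bar) and the median of all genes tested (dashed, 0.02). List medians lie between -0.78 and 0.30, against 0.54 for the 10 genes, and the triangle is Plin5 at its lower bound.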

How the data were processed

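RNA was copied with a SMART-Seq low-input kit and sequenced as paired ends, per the labels' protocols. The authors deposited raw, unnormalized counts for each Ensembl gene and library. Tools listed in the submitters' processing notes are HTSeq 0.11.2, STAR 2.5.2b, cutadapt, DESeq2 1.26.0 and bcl2fastq 2.20, with the mm10 build. For strand setting, annotation release and multiply mapped reads, the choices are not given in the sources. Of 42687 identifiers 42250 had a symbol. Gene positions and exon lengths came from GENCODE of the same build.

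The diets were compared with edgeR 4.0.16 (R 4.3.3): TMM, filterByExpr, robust quasi-likelihood test, diet as the sole term, Benjamini-Hochberg adjustment over all 14304 genes tested at 0.05. The procedure was tested on simulated counts. DESeq2 1.42.0 and limma 3.58.1 were alternatives. Intervals cover 95%. The 10 genes and the lists were chosen with earlier results of these data known. Named were the 10 genes, from each adipogenesis list the 2 smallest p and the highest level per kb, up to 3 markers per cell type, and the 2 most similar genes of genes whose groups did not overlap. Others (Cdh5, Cldn5, Emcn, Flt1, Esam, Egfl7, Adgre1, Mrc1, Gpihbp1, Ren1, Lep, Retn, Cfd and Adrb3) were named after their values were seen. So were Esm1, Chrdl1, Pdgfrb, Foxc1, Gas6, Ebf3, Kitl, Il7, Grem1, Csf1, Mpo and Elane. Nothing says that libraries came from separate animals, so p-values measure the spread between these libraries. Libraries of a diet differed beyond counting noise, with a chi-square of 53.8 to 299.2 per degree of freedom in every pair. Amplification without molecular identifiers means that floors cover counting error only.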

Additional observations from a re-analysis of the deposited data

Results flagged for a closer look

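Of 39 sets of 4 LFD values examined, 7 had a library far from the other 3 by Dixon's ratio (critical value 0.829). Chance gives about 1 in 20 for independent, normally distributed values. Some of these genes were picked for like profiles, so that rate is a rough guide only. Not every gene named here was examined, Ighm being among those left out. HFD had 3 libraries and was not examined. Cebpb was highest in LFD 1, at 106.6 CPM against 50.7 CPM in the next library. Agt was highest in LFD 2, at 36.0 against 27.5 CPM, a gap that is small beside the HFD levels. Adipoq was also highest in LFD 2, at 19.5 against 3.30 CPM. Fabp4 was highest in LFD 4, at 9.79 against 2.43 CPM, and so was Ftl1-ps1, at 27.4 against 12.6 CPM, the latter having been picked for its likeness to Fabp4. Cdh13 (201.3 against 89.9 CPM) and Fabp5 (7.65 against 4.17 CPM) were highest in LFD 1.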

How the results depend on the processing

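None of the 10 genes passed under 14 of 16 alternatives. DESeq2 called 2 of them and 3 genes of the adipogenesis lists (0 in edgeR), and limma-voom called 1 of them, with a median log2 fold change of the 10 of 0.80 against 0.54. Leaving out 1 library at a time gave medians from 0.45 to 0.85 and 0 calls, with 5 or 6 of the 10 genes not overlapping between diets. Of 160 fold changes of the 10 genes under alternatives 149 kept their direction and side of the threshold. Zfp423 turned to -0.29 with limma-voom, to -0.073 with the erythroid share as a covariate and ranged from -0.12 to 0.67 over the fits without 1 library. Zfp467 turned to 0.41 with the replicate block and ranged from -0.45 to 0.21 over those fits. Cd36 turned to 0.039 with the erythroid share as a covariate. The causes were not tested. Same-numbered libraries of the diets did not deviate together (correlations from -0.168 to 0.0735, against -0.281 to 0.324 for libraries with different numbers). No pairing by number was seen, but so few pairs cannot exclude one. With the block, edgeR called 0 of the 10 genes. With the length of the longest transcript, Lpl had 6.16 in place of 2.42 CPM per kb, Pparg stood above Fabp4, and Zfp467 above Cebpa. Genes with few counts, such as Pparg, have wide intervals at this depth.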

Other observations

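Mural cell markers, mostly Cspg4, made up 0.0298% to 0.0572% of counts in LFD and 0.0471% to 0.0752% in HFD, while Acta2, a smooth muscle actin gene, was lower in every HFD library (adjusted p = 0.266 in edgeR and 0.00141 in DESeq2) with 73.99 to 171.0 CPM in LFD and 20.6 to 40.3 CPM in HFD. B lineage markers made up 0.00114% to 0.0472% of counts in LFD, the highest being LFD 4 with Ighm at 442.1 CPM, and 0.0102% to 0.0219% in HFD. T lineage markers reached at most 0.00118% of a library. Vcam1, an adhesion gene of reticular stroma, did not share the separation of Lepr and Cxcl12, with 242.7 to 358.7 CPM in LFD and 258.0 to 386.6 CPM in HFD, whereas Hp, the haptoglobin gene, measured 7.41 to 74.4 CPM in LFD and 306.6 to 388.1 CPM in HFD.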
